A study of Mus musculus with 13 samples.

Results

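The 36 genes described here are a listed set of ATF4-linked growth genes: 20 cytosolic aminoacyl-tRNA synthetase genes, 6 genes of amino acid synthesis, 5 folate one-carbon enzymes and 5 stress regulators. They were taken by name, from a list made with earlier results of these data known, out of the 23418 genes of the count table, where all 36 were found, and all 36 passed the filter on low counts that left 15412 genes for testing. The series concerns signals of the muscle niche that act on satellite cells, and it holds 13 bulk RNA-seq libraries of total RNA from mouse cells: 4 labelled FAP from muscle, 5 labelled FAP from lung and 4 labelled MEF. In this field FAP stands for fibro/adipogenic progenitor, a resident connective tissue cell, and MEF for mouse embryonic fibroblast, a cell grown in culture. No strain, age, sex, sort gate or culture condition was stated in the labels, files or notes used. No treatment or allele is named for any group, and the labels do not say whether the libraries of a group came from separate animals or cultures, so p-values measure only the spread between these libraries, which may be technical.

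Aminoacyl-tRNA synthetases load each amino acid on its tRNA before translation. When amino acids run short or unfolded protein builds up, kinases phosphorylate the initiation factor eIF2, translation of most messages falls, and that of Atf4 rises. ATF4 is a transcription factor that raises many synthetase genes, asparagine and serine synthesis, the mitochondrial folate enzymes that use serine carbon, and its own brakes, such as Trib3. Because ATF4 is controlled largely through translation, its mRNA level is not a measure of its protein.

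ATF4 binds a composite element with the letters TGATGNAA. This motif was searched on both strands of RefSeq promoter windows on GRCm38.p6, the same build as the mm10 of the counts, from 250 bases before the start site over 50 bases from it on. Windows were matched for 29 of the 36 genes; Cars, Hars, Lars, Nars, Rars, Vars and Wars were not matched. The motif lay in 9 of the 29 (Aars, Asns, Chac1, Gars, Iars, Pycr1, Tars, Trib3 and Yars), and in 4.51% of all 27025 genes with such a window. The 10 matches in these 9 genes are shown here with their flanks, 5′ to 3′ on the gene's strand, with the match in capitals (on the other strand the motif reads as its reverse complement).
Asns: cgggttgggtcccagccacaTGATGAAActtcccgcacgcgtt
Chac1: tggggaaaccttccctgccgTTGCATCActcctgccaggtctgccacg
Trib3: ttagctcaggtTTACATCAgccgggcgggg
Pycr1: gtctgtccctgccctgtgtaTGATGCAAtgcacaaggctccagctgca
Aars: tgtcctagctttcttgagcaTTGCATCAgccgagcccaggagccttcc
Aars (second match): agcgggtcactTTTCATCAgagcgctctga
Yars: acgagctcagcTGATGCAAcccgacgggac
Tars: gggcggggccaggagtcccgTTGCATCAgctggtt
Gars: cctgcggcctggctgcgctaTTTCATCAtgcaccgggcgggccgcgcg
Iars: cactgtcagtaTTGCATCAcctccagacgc
The Asns stretch lies at chr6:7693210-7693252 on the minus strand, with its match starting 23 bases before the start site. The Chac1 stretch lies at chr2:119351029-119351076 on the plus strand and that of Trib3 at chr2:152344028-152344057 on the minus strand. Pycr1 is at chr11:120643824-120643871 on the minus strand, and Tars at chr15:11399659-11399693 on the minus strand. The Aars stretches are at chr8:111033710-111033757 and chr8:111033840-111033869, the Yars stretch at chr4:129189895-129189924, the Gars stretch at chr6:55037951-55037998 and the Iars stretch at chr13:49682126-49682155, all on the plus strand. The E-box CACGTG, a palindrome bound by MYC among other factors, lay in 5 of the 29 windows (Aars, Aldh18a1, Farsb, Iars and Tars) and in 8.09% of all genes. A match is a description of the letters and not a binding site.

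Library totals spanned 41327292 to 44699463 counts for muscle FAPs, 28636183 to 35464622 for lung FAPs and 33756915 to 41466585 for MEFs. The FAP markers Pdgfra, Cd34 and Ly6a were present in both FAP groups: Pdgfra averaged 1389.7 and 800.2 CPM (counts scaled to library size and by TMM, edgeR's composition factor) for muscle and lung FAPs, against 29.4 CPM for MEFs. Lung FAP 3 stood apart by lung epithelial markers, whose sum over 10 genes was 8800.4 CPM against 42.6 to 134 CPM in the other lung libraries, and its blood marker sum was the highest of the lung libraries, 665 CPM. Among the lung libraries, lung FAP 2 had the highest endothelial and pericyte marker sums, 625.1 and 2023 CPM. Counts of genes called between muscle and lung FAPs are therefore given with and without these 2 libraries. In bulk samples, fewer cells of a type and less RNA per cell cannot be told apart.

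Most of the 36 genes were higher in MEFs than in either FAP group, and within the FAPs more were higher than lower in muscle against lung under TMM, though not with library size only (10 against 11). Between MEFs and lung FAPs, 32 of the 36 passed as lower in lung FAPs and 2 as higher (edgeR quasi-likelihood test, Benjamini-Hochberg adjusted p under 0.05), beside 36.6% lower and 37.8% higher (74.4% in either direction) among all 15412 genes tested. Between MEFs and muscle FAPs, 28 passed as lower in muscle FAPs and 3 as higher, beside 37.3% and 36.1% (73.5%) of all genes. Between the FAP groups, 21 passed as higher in muscle and 5 as lower, beside 23.2% and 25% (48.2%) of all genes. The median log2 difference of the 36 was −1.47 for lung FAP minus MEF, −1.14 for muscle FAP minus MEF and 0.35 for muscle minus lung FAP, where the medians of all genes were 0.02, −0.04 and −0.04. The 3 comparisons share their groups, so they are not independent of each other. In raw counts, the 36 genes took 0.55 to 0.586% of each MEF library, 0.209 to 0.238% of each muscle library and 0.196 to 0.219% of each lung library.

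**Figure D1:**
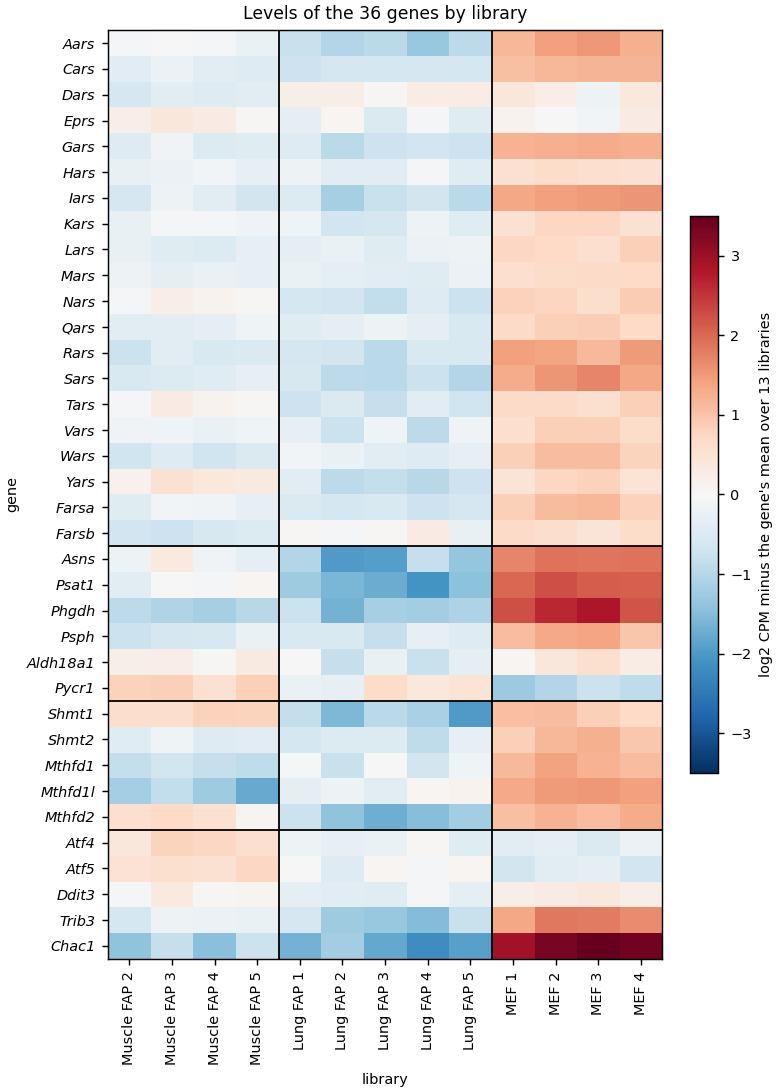
Level of each of the 36 genes (rows, grouped by role) in each of the 13 libraries (columns), as log2 CPM minus the gene's mean over the libraries. MEF libraries sit at the high end for most synthetases and for the serine and one-carbon enzymes, while Atf4, Atf5 and Pycr1 were highest in muscle FAPs.

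The split between the FAP groups depended on the scaling. TMM factors were 0.777 to 0.808 for muscle libraries and 0.985 to 1.16 for lung libraries, so muscle values are raised relative to plain library size. With library size only, the median of all genes moved from −0.04 to −0.44 and the split became 10 higher and 11 lower in muscle. The 10 were Aars, Nars, Tars, Yars, Asns, Psat1, Shmt1, Mthfd2, Atf4 and Atf5. Of the other 11, Cars, Gars, Iars, Farsa and Ddit3 turned sign and Eprs, Sars, Aldh18a1, Pycr1, Trib3 and Chac1 no longer passed. The median of the 36 relative to that of all genes was 0.391 with TMM and 0.394 with library size only, with 30 of the 36 above that median under both. A change of scaling shifts all genes of a comparison by nearly the same amount. This likeness was therefore fixed in advance and does not bear on whether the calls hold. Without lung FAPs 2 and 3, 18 were higher and 5 lower, and the 3 calls lost were Gars, Iars and Sars. Without these libraries Asns differed by 0.99, Psat1 by 1.45, Shmt1 by 1.98, Mthfd2 by 1.61 and Atf4 by 0.80 log2 units between muscle and lung. The libraries of the 2 FAP groups did not overlap for 14 higher and 3 lower genes, beside 37.9% of all genes in either direction. Muscle FAP and MEF libraries did not overlap for 31 of the 36 genes and lung FAP and MEF libraries for 32, beside 73.9% and 65.3% of all genes.

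**Figure D2:**
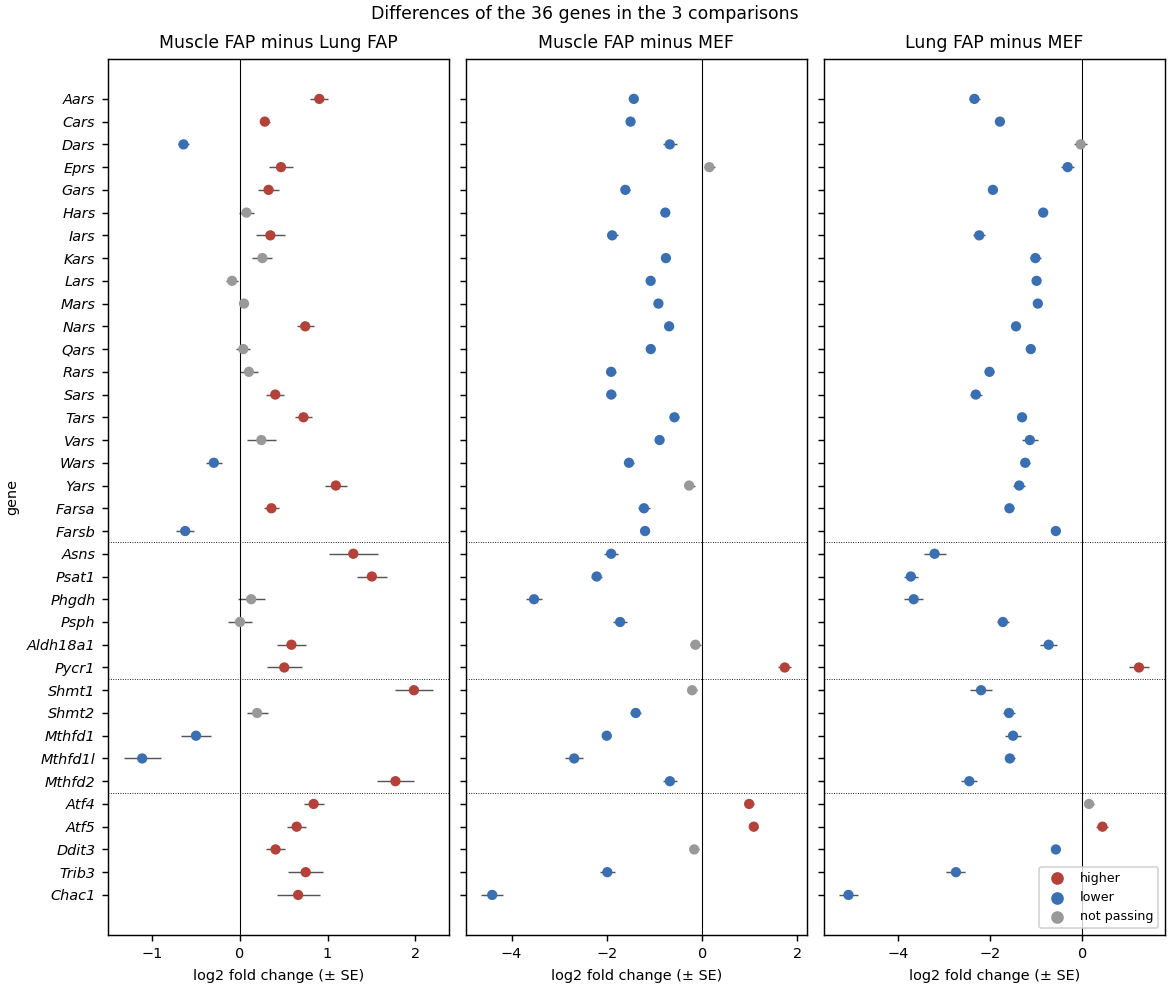
Log2 difference of each gene (points, with standard error bars) in the 3 comparisons, grouped by role; red points passed as higher, blue points as lower and grey points did not pass. The MEF comparisons lie mostly below 0, with Pycr1, Atf5 and Atf4 above it in both (Atf4 not passing in lung FAPs), and the comparison of muscle with lung FAPs spans −1.11 (Mthfd1l) to 1.98 (Shmt1).

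Synthetases were the largest group. Against MEFs, 19 of 20 passed as lower in lung FAPs and 18 of 20 as lower in muscle FAPs, and none passed as higher; their medians were −1.27 and −1.08. Between the FAP groups, 10 passed as higher in muscle and 3 as lower, with a median of 0.27 (4 higher and 8 lower with library size only, and 7 higher and 3 lower without lung FAPs 2 and 3). Values below are given in the order of the replicate numbers, muscle FAP 2 to 5, lung FAP 1 to 5 and MEF 1 to 4.

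Aars, which charges alanine, read 136, 144, 136 and 120.1 CPM in the muscle libraries, 82.2, 69.6, 73.9, 57.3 and 75.0 CPM in the lung libraries and 320.2, 384, 407 and 339 CPM in MEFs. Every MEF library was above every FAP library and every muscle library above every lung library. The lung FAP difference from MEFs was the largest among the synthetases (log2 difference −2.34, SE 0.12, edgeR adjusted p = 7.73e-11), and muscle exceeded lung by 1.87-fold (log2 difference 0.91, SE 0.10, edgeR adjusted p = 1.11e-05). Yars, the tyrosine enzyme, read 83.3, 107, 97.4 and 92.6 CPM in the muscle libraries, 57.1, 39.9, 42.3, 38.5 and 45.0 CPM in the lung libraries and 103, 123, 131 and 104 CPM in MEFs. Muscle FAPs overlapped MEFs here, whereas all lung libraries were lower (log2 difference 1.09, SE 0.13, edgeR adjusted p = 4.94e-06 for muscle minus lung). The difference between muscle FAPs and MEFs in Yars missed the threshold (log2 difference −0.27, SE 0.11, edgeR adjusted p = 0.0714), but it passed without muscle FAP 3 or without MEF 1 or 4 (0.0347 to 0.047), with DESeq2's size factors or Wald test (0.0497 and 0.0465) and with library size only (log2 difference −0.85, adjusted p = 6.34e-06). Nars, the asparagine enzyme, read 184, 228, 210.1 and 198 CPM in the muscle libraries, 126, 122, 106, 142 and 115 CPM in the lung libraries and 341, 329, 297 and 358 CPM in MEFs. Tars, the threonine enzyme, read 84.1, 105, 94.0 and 89.3 CPM in the muscle libraries, 52.3, 61.0, 49.6, 65.4 and 53.2 CPM in the lung libraries and 138, 138, 127 and 155 CPM in MEFs. In Nars and Tars the 3 groups did not overlap, with MEFs highest and lung FAPs lowest. Muscle exceeded lung FAPs by 0.75 log2 units in Nars (edgeR adjusted p = 3.27e-05) and by 0.73 in Tars (edgeR adjusted p = 4.08e-05).

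Sars, which charges serine, also onto the selenocysteine tRNA, read 84.4, 88.9, 91.9 and 101 CPM in the muscle libraries, 84.0, 64.9, 63.4, 73.1 and 60.5 CPM in the lung libraries and 303, 358, 399 and 312 CPM in MEFs. Rars, the arginine enzyme, read 43.5, 55.3, 50.6 and 51.9 CPM in the muscle libraries, 48.6, 46.7, 38.4, 50.4 and 50.2 CPM in the lung libraries and 198, 190.2, 162 and 207 CPM in MEFs. In both genes every MEF library was above every FAP library, and muscle FAPs differed from MEFs by −1.91 in Sars (edgeR adjusted p = 2.44e-09) and −1.91 in Rars (edgeR adjusted p = 9.32e-10). In Sars muscle exceeded lung FAPs (log2 difference 0.40, SE 0.10, edgeR adjusted p = 0.00943), a call lost without lung FAPs 2 and 3 (edgeR adjusted p = 0.0601). The FAP groups overlapped in Rars (log2 difference 0.10, SE 0.10, edgeR adjusted p = 0.451), which passed as lower in muscle with library size only (−0.31, adjusted p = 0.0307). Iars, the isoleucine enzyme, read 60.8, 81.1, 69.3 and 57.8 CPM in the muscle libraries, 65.7, 40.3, 53.0, 58.3 and 46.9 CPM in the lung libraries and 234, 245, 253 and 263 CPM in MEFs. Gars, the glycine enzyme, read 83.9, 107, 82.1 and 86.0 CPM in the muscle libraries, 85.1, 60.0, 70.4, 72.4 and 69.5 CPM in the lung libraries and 266, 275, 283 and 272 CPM in MEFs. In both genes every MEF library was far above the highest FAP library, which was muscle FAP 3 each time. The small muscle excess over lung, which turned sign with library size only (−0.07 in Gars and −0.05 in Iars), passed for Gars (log2 difference 0.33, SE 0.12, edgeR adjusted p = 0.0197) and for Iars (log2 difference 0.35, SE 0.16, edgeR adjusted p = 0.0438). Without muscle FAP 3 neither call held (edgeR adjusted p = 0.0914 for Gars and 0.173 for Iars), nor without lung FAPs 2 and 3 together (0.114 and 0.188). The Iars call was also lost without lung FAP 2, 3 or 5 or muscle FAP 4, each left out alone (0.068 to 0.0954).

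A few synthetases departed from this order. Dars, the aspartate enzyme, averaged 55.6 ± 3.45 CPM (SD, n = 5) in lung FAPs, 35.6 ± 2.52 CPM (n = 4) in muscle and 57.0 ± 9.88 CPM (n = 4) for MEFs. It was lower in muscle than in lung (log2 difference −0.64, SE 0.07, edgeR adjusted p = 0.000311) and the difference between lung FAPs and MEFs missed the threshold (log2 difference −0.04, SE 0.14, edgeR adjusted p = 0.785). Farsb, a subunit of the phenylalanine enzyme, was also lower in muscle (log2 difference −0.62, SE 0.10, edgeR adjusted p = 0.000229), while its partner Farsa was higher, or −0.05 with library size only (log2 difference 0.36, SE 0.08, edgeR adjusted p = 0.00932). Eprs, the joint glutamate and proline enzyme, averaged 255, 184 and 229 CPM in muscle FAPs, lung FAPs and MEFs, and the muscle difference from MEFs missed the threshold (log2 difference 0.15, SE 0.11, edgeR adjusted p = 0.337; −0.43 and adjusted p = 0.0202 with library size only). Lung FAPs passed as lower than MEFs in Eprs (log2 difference −0.32, SE 0.14, edgeR adjusted p = 0.0383), a call lost without lung FAP 1, 3 or 5 or MEF 1, 2 or 4 (0.0504 to 0.118). The tryptophan enzyme Wars was lower in muscle than lung (log2 difference −0.30, SE 0.09, edgeR adjusted p = 0.0276), a call lost without lung FAP 1, 2 or 5 or muscle FAP 2 or 4 (0.052 to 0.0832).

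The other synthetases were Cars, Hars, Kars, Lars, Mars, Qars and Vars, for cysteine, histidine, lysine, leucine, methionine, glutamine and valine. All 7 passed as lower in both FAP groups than in MEFs, from −1.50 (Cars) to −0.76 (Kars) log2 units in muscle FAPs and from −1.79 (Cars) to −0.85 (Hars) in lung FAPs, with no overlap of libraries. Between the FAP groups Cars passed (log2 difference 0.28, SE 0.06, edgeR adjusted p = 0.00696), with its sign turned by library size only (−0.12). The other 6 did not pass, from −0.09 (Lars) to 0.26 (Kars), although Kars did without lung FAP 1 or 4 (0.0248 to 0.0284). With library size only Hars (−0.33, adjusted p = 0.00585), Lars (−0.50, 0.000712), Mars (−0.36, 0.00151) and Qars (−0.37, 0.00529) passed as lower in muscle. Farsa, Farsb and Wars were also lower in both FAP groups than in MEFs, from −0.57 (Farsb, lung) to −1.58 (Farsa, lung).

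The 12 synthetase genes known to respond to ATF4 (Aars, Cars, Eprs, Gars, Iars, Lars, Mars, Nars, Sars, Tars, Wars and Yars) passed as higher in muscle than lung in 9 cases and lower in 1, and the other 8 in 1 and 2 cases. Their medians were 0.38 and 0.089, and this contrast was not tested. With library size only the counts were 4 higher and 3 lower for the first list and 0 and 5 for the second, and without lung FAPs 2 and 3 they were 6 and 1, and 1 and 2. Against MEFs both lists were lower: the ATF4-responsive list passed as lower for 12 of 12 genes in lung FAPs and 10 of 12 in muscle FAPs, and the other list for 7 of 8 and 8 of 8. The 8 synthetases of the multi-synthetase complex passed as higher in muscle than lung for 2 genes and lower for 1, with a median of 0.075, and the 12 outside it for 8 and 2, with a median of 0.34. These became 0 and 5, and 4 and 3, with library size only, and 1 and 1, and 6 and 2, without lung FAPs 2 and 3.

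Other genes of tRNA charging were read from further lists, also chosen with earlier results of these data known. Counts in these and the later lists stand beside the shares of all genes tested. Those were 36.1% higher and 37.3% lower in muscle FAPs than MEFs, and 37.8% and 36.6% in lung FAPs. Between the FAP groups they were 23.2% higher and 25% lower in muscle. The 3 scaffold genes of the complex were all lower in both FAP groups than in MEFs: Eef1e1 averaged 16.7, 12.04 and 49.4 CPM in muscle FAPs, lung FAPs and MEFs (−1.57 and −2.04 log2 units against MEFs), and Aimp2 differed by −1.68 and −1.47. Mitochondrial synthetases, which serve the organelle's own translation, split as follows: of 17, 8 passed as lower and 2 as higher in muscle FAPs than MEFs, and 9 and 4 in lung FAPs. Sars2 was lower in both FAP groups (−1.59 and −1.89 log2 units). Between the FAP groups, 2 were higher and 4 lower in muscle (1 and 8 with library size only, and 1 and 2 without lung FAPs 2 and 3), with Mars2 the largest at 10.6, 2.67 and 11.9 CPM in muscle FAPs, lung FAPs and MEFs (log2 difference 1.99, SE 0.18, edgeR adjusted p = 3.04e-07) and Rars2 lower (−1.05).

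Genes of amino acid synthesis had medians of −2.46 log2 units in lung FAPs and −1.82 in muscle FAPs against MEFs. In lung FAPs 5 of 6 passed as lower than MEFs and 1 as higher, in muscle FAPs 4 as lower and 1 as higher, and between the FAP groups 4 were higher in muscle and none lower (2 higher and 1 lower with library size only, and 4 and 0 without lung FAPs 2 and 3).

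Asns makes asparagine from aspartate and glutamine and is a classic ATF4 target; the motif match near its start site is shown above. It read 25.0, 35.7, 26.1 and 22.2 CPM in the muscle libraries, 13.7, 7.08, 7.45, 16.2 and 11.1 CPM in the lung libraries and 92.7, 106, 104 and 106 CPM in MEFs. The groups did not overlap, with MEFs highest and lung FAPs lowest. Muscle exceeded lung FAPs 2.45-fold (log2 difference 1.29, SE 0.28, edgeR adjusted p = 0.000205) and MEFs exceeded lung FAPs 9.21-fold (log2 difference −3.20, SE 0.24, edgeR adjusted p = 7.47e-09). The synthetase that charges asparagine, Nars, had the same order of groups with smaller differences.

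The serine pathway runs through Phgdh, Psat1 and Psph in that order. Phgdh read 28.9, 26.3, 24.2 and 28.0 CPM in the muscle libraries, 32.2, 17.4, 24.2, 23.4 and 25.7 CPM in the lung libraries and 259.7, 339.9, 388 and 252 CPM in MEFs. Every FAP library was far below every MEF library, and the FAP groups overlapped (log2 difference −3.66, SE 0.21, edgeR adjusted p = 4.78e-11 for lung FAP minus MEF, and log2 difference 0.13, SE 0.15, edgeR adjusted p = 0.539 for muscle minus lung). Psat1 read 30.5, 39.9, 38.4 and 41.6 CPM in the muscle libraries, 16.8, 13.1, 12.04, 9.41 and 14.9 CPM in the lung libraries and 163, 191, 174 and 169.8 CPM in MEFs. Unlike Phgdh, it separated the FAP groups, with muscle 2.84-fold higher (log2 difference 1.51, SE 0.17, edgeR adjusted p = 8.97e-07), and both lay below MEFs (log2 difference −2.21, SE 0.11, edgeR adjusted p = 4.59e-09 in muscle FAPs). Psph read 7.28, 8.10, 8.35 and 10.5 CPM in the muscle libraries, 8.48, 8.45, 6.94, 10.003 and 8.94 CPM in the lung libraries and 26.1, 31.0, 31.8 and 24.1 CPM in MEFs. It was lower in both FAP groups than in MEFs by the same −1.72 log2 units, and the difference between the FAP groups was 0.00 with an SE of 0.14. Of the 3 steps, Psat1 passed between the tissues and the first and last did not, although with library size only Psph passed as lower in muscle (−0.41, edgeR adjusted p = 0.0282).

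Proline synthesis was the exception. Aldh18a1, which starts proline synthesis from glutamate, read 75.5, 75.7, 67.2 and 80.1 CPM in the muscle libraries, 65.8, 37.4, 54.5, 37.9 and 52.7 CPM in the lung libraries and 68.8, 86.1, 96.0 and 78.5 CPM in MEFs. Muscle FAPs overlapped MEFs and lay above lung FAPs (log2 difference 0.59, SE 0.17, edgeR adjusted p = 0.00562). The difference from MEFs missed the threshold in muscle FAPs (log2 difference −0.14, SE 0.11, edgeR adjusted p = 0.444) but passed with library size only (−0.71, 0.000326). Pycr1, the enzyme of the last step, read 16.05, 16.4, 13.3 and 16.4 CPM in the muscle libraries, 7.85, 7.62, 14.4, 11.9 and 12.97 CPM in the lung libraries and 3.76, 4.52, 5.48 and 4.92 CPM in MEFs. It was higher in FAPs of both tissues than in every MEF library (log2 difference 1.73, SE 0.13, edgeR adjusted p = 2.25e-06 in muscle and log2 difference 1.23, SE 0.22, edgeR adjusted p = 4.85e-05 in lung), whereas no other gene of this list passed as higher than MEFs. Its promoter window holds the motif printed above. The muscle excess over lung (log2 difference 0.51, SE 0.20, edgeR adjusted p = 0.0403) was lost without lung FAP 1 or 2 or muscle FAP 2, 3 or 5 (edgeR adjusted p 0.0745 to 0.0949).

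**Figure D3:**
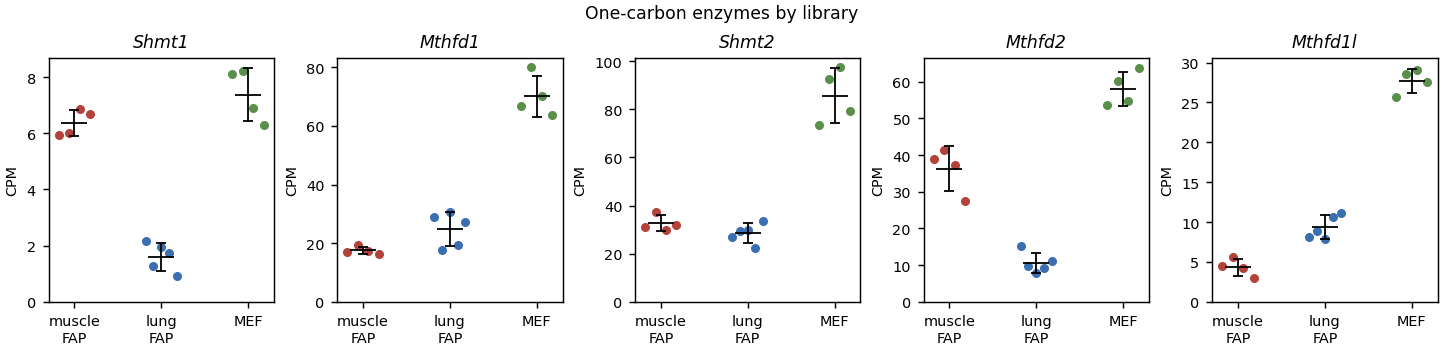
CPM of the 5 one-carbon enzymes in each library (points) by group, with the mean and SD as bars; each panel has its own linear axis from 0. MEFs lie above all FAP libraries for Mthfd1, Shmt2, Mthfd2 and Mthfd1l, and muscle above lung FAPs for Shmt1 and Mthfd2.

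One-carbon enzymes take the carbon of serine onto folate. The mitochondrial set (Shmt2, Mthfd2 and Mthfd1l) and the cytosolic set (Shmt1 and Mthfd1) did not move as blocks between tissues: 2 of the 5 passed as higher in muscle, 2 as lower and 1 in neither direction (2 and 2 also without lung FAPs 2 and 3 and with library size only), and against MEFs 4 were lower in muscle FAPs and all 5 in lung FAPs.

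Mthfd2 read 38.9, 41.5, 37.3 and 27.5 CPM in the muscle libraries, 15.2, 9.73, 7.84, 9.21 and 11.1 CPM in the lung libraries and 53.6, 60.1, 54.7 and 63.6 CPM in MEFs. The groups did not overlap, with muscle 3.42-fold above lung (log2 difference 1.77, SE 0.21, edgeR adjusted p = 8.79e-07) and MEFs above both. Shmt1, the cytosolic enzyme, read 5.94, 6.004, 6.85 and 6.68 CPM in the muscle libraries, 2.15, 1.26, 1.97, 1.73 and 0.933 CPM in the lung libraries and 8.10, 8.22, 6.88 and 6.29 CPM in MEFs. It showed the largest tissue difference of the 36 (log2 difference 1.98, SE 0.22, edgeR adjusted p = 5.44e-06), while muscle FAPs overlapped MEFs (log2 difference −0.21, SE 0.11, edgeR adjusted p = 0.421). With library size only muscle FAPs passed as lower than MEFs in Shmt1 (−0.79, adjusted p = 0.00531). Mthfd1l went the other way and read 4.46, 5.59, 4.23 and 2.96 CPM in the muscle libraries, 8.08, 8.93, 7.87, 10.6 and 11.2 CPM in the lung libraries and 25.7, 28.6, 29.1 and 27.6 CPM in MEFs. Muscle FAPs were lower than every lung library (log2 difference −1.11, SE 0.21, edgeR adjusted p = 8.04e-05). Mthfd1, the cytosolic trifunctional enzyme, read 17.01, 19.4, 17.4 and 16.2 CPM in the muscle libraries, 28.8, 17.7, 30.7, 19.4 and 27.1 CPM in the lung libraries and 66.7, 79.9, 70.1 and 63.6 CPM in MEFs. It was lower in muscle than lung FAPs (log2 difference −0.50, SE 0.17, edgeR adjusted p = 0.0139), with overlap of the libraries. Shmt2 read 31.1, 37.4, 30.0 and 32.0 CPM in the muscle libraries, 26.8, 29.6, 29.7, 22.4 and 33.7 CPM in the lung libraries and 73.4, 92.8, 97.6 and 79.2 CPM in MEFs. The FAP groups overlapped, and both were lower than MEFs (log2 difference −1.59, SE 0.14, edgeR adjusted p = 1.57e-08 for lung).

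The stress regulators split. All 5 were higher in muscle than in lung FAPs, with a median of 0.66, whereas against MEFs Atf4 and Atf5 were higher in muscle FAPs and Trib3 and Chac1 far lower. With library size only, Atf4 and Atf5 alone passed as higher in muscle than lung, and without lung FAPs 2 and 3 all 5 did.

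Atf4 read 532, 694, 671 and 611 CPM in the muscle libraries, 355, 332, 341, 418 and 303 CPM in the lung libraries and 308, 319, 285 and 353 CPM in MEFs. Every muscle library was above every lung and MEF library (log2 difference 0.84, SE 0.11, edgeR adjusted p = 3.4e-05 for muscle minus lung and log2 difference 0.99, SE 0.11, edgeR adjusted p = 3.78e-06 for muscle FAP minus MEF), while lung FAPs and MEFs overlapped (log2 difference 0.15, SE 0.10, edgeR adjusted p = 0.276). Atf5, a factor induced by the same pathway, read 231, 239, 237 and 270.4 CPM in the muscle libraries, 165, 119, 171, 154 and 171 CPM in the lung libraries and 104, 125, 129 and 103 CPM in MEFs. It followed the same order, and lung FAPs were also above MEFs on average (log2 difference 0.44, SE 0.13, edgeR adjusted p = 0.00363). Ddit3, which encodes CHOP, read 58.2, 77.4, 62.9 and 64.9 CPM in the muscle libraries, 47.8, 47.2, 45.9, 58.6 and 49.0 CPM in the lung libraries and 71.7, 74.1, 78.8 and 71.1 CPM in MEFs. Muscle was above lung FAPs on average (log2 difference 0.41, SE 0.11, edgeR adjusted p = 0.00358), but not with library size only. MEFs were above lung FAPs (log2 difference −0.57, SE 0.07, edgeR adjusted p = 9.2e-05). The Ddit3 difference between muscle FAPs and MEFs missed the threshold (log2 difference −0.17, SE 0.09, edgeR adjusted p = 0.166). It passed as lower in muscle without muscle FAP 3 (−0.28, edgeR adjusted p = 0.0292) and with library size only (−0.74, edgeR adjusted p = 1.36e-05).

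Trib3, a pseudokinase that restrains ATF4, read 7.28, 9.88, 9.79 and 9.46 CPM in the muscle libraries, 7.42, 4.71, 4.47, 3.89 and 6.53 CPM in the lung libraries and 29.0, 40.5, 39.5 and 35.6 CPM in MEFs. MEFs were 6.68-fold above lung FAPs (log2 difference −2.74, SE 0.20, edgeR adjusted p = 3.5e-09). Chac1, a glutathione-degrading enzyme induced by ATF4 and CHOP, read 1.46, 2.25, 1.41 and 2.33 CPM in the muscle libraries, 1.23, 1.66, 1.10, 0.831 and 1.02 CPM in the lung libraries and 30.9, 39.7, 46.0 and 41.4 CPM in MEFs. MEFs exceeded muscle FAPs 21.2-fold and lung FAPs 33.6-fold (log2 difference −5.07, SE 0.20, edgeR adjusted p = 2.26e-11), the largest difference of the 36. Its muscle excess over lung (log2 difference 0.66, SE 0.25, edgeR adjusted p = 0.0202) was lost without muscle FAP 3 (adjusted p = 0.0721) or 5 (adjusted p = 0.0698). It was also lost when the 2 FAP groups were fitted alone (edgeR adjusted p = 0.149). Atf4 mRNA was thus highest in muscle FAPs, whereas Asns, Psat1, Trib3 and Chac1 were highest in MEFs.

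**Figure D4:**
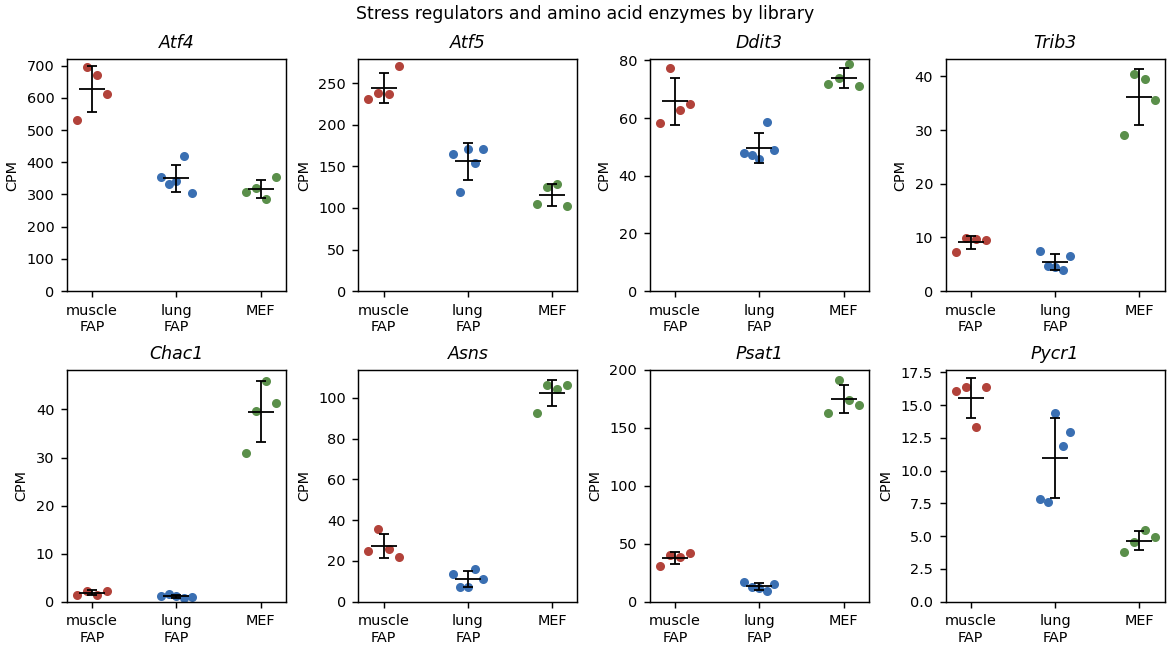
CPM of the 5 stress regulators and of Asns, Psat1 and Pycr1 in each library (points) by group, with the mean and SD as bars; each panel has its own linear axis from 0. Muscle FAPs are highest for Atf4 and Atf5, MEFs are highest for Trib3, Chac1, Asns and Psat1, and MEFs are lowest for Pycr1.

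Per kilobase of the principal transcript, Atf4 was the most abundant of the 36 genes in all 3 groups, at 363 CPM per kb for muscle, 203 for lung and 183 for MEFs. Atf5 was next in both FAP groups (134 and 85.8). In MEFs the next places went to Phgdh (164), Nars (121) and Gars (115). Phgdh was 14.2 CPM per kb in muscle FAPs.

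Several genes upstream of the 36 were also read. Of 13 genes for eIF2 kinases, phosphatase subunits and exchange factor, 4 were higher and 8 lower in muscle FAPs than MEFs, 3 and 8 in lung FAPs, and 4 were higher and 1 lower in muscle than lung (2 and 6 with library size only, and 3 and 1 without lung FAPs 2 and 3). Ppp1r15a (GADD34), which brings the phosphatase to eIF2, averaged 1008, 341 and 113 CPM in muscle FAPs, lung FAPs and MEFs (log2 difference 1.56, SE 0.14, edgeR adjusted p = 6.42e-07 for muscle minus lung). Its constitutive relative Ppp1r15b differed by 1.29. The kinase PERK (Eif2ak3) averaged 85.6, 60.0 and 39.9 CPM while the amino acid sensor GCN2 (Eif2ak4) averaged 18.1, 19.3 and 31.9 CPM and was lower in both FAP groups than in MEFs (−0.82 and −0.73). Eif2b5, a subunit of the exchange factor, was also lower in FAPs (−2.02 and −1.87).

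Other ATF4-linked stress genes were more often higher in FAPs. Of 18, 11 were higher and 4 lower in muscle FAPs than MEFs (median 1.37), 10 and 5 in lung FAPs (median 0.95), and 12 were higher and 1 lower in muscle than lung (4 and 3 with library size only, and 8 and 2 without lung FAPs 2 and 3). Hspa5, the chaperone of the endoplasmic reticulum, averaged 5853, 2142 and 742 CPM in muscle FAPs, lung FAPs and MEFs (1.45 log2 units for muscle minus lung). Atf3 averaged 1229, 943 and 37.9 CPM and Vldlr 253, 194 and 21.8 CPM, both far higher in FAPs of either tissue (5.02 and 3.54 in muscle). Ddit4, an inhibitor of mTORC1, was the largest tissue difference in this list (2.08). Sesn2 and Eif4ebp1, 2 restraints on mTORC1 and on cap-dependent translation, were instead highest in MEFs and lowest in lung FAPs, at 32.5, 12.6 and 111 CPM and 47.4, 30.0 and 132 CPM.

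Markers moved beside these results. The summed level of 12 genes induced by tissue handling and cell isolation was 26926 to 33483 CPM in muscle libraries, 6885 to 19045 in lung libraries and 667 to 957 in MEFs, all 12 higher in muscle FAPs than MEFs, 11 in lung FAPs, and 8 higher and 1 lower in muscle than lung (also without lung FAPs 2 and 3). With library size only, 7 of these 12 genes were higher and 3 lower in muscle than lung. Their part in the levels of Atf4, Ppp1r15a, Atf3 and the other stress genes was not tested. Cell cycle genes were lower in FAPs than in MEFs: the sum over 15 genes was 175 to 207 CPM in muscle libraries, 131 to 152 in lung libraries and 344 to 423 in MEFs, with 14 lower in muscle FAPs and 13 in lung FAPs than in MEFs. Between muscle and lung FAPs 4 were higher and 3 lower in muscle, with a median of −0.47 (3 and 8 with library size only, and 4 and 3 without lung FAPs 2 and 3); Pcna, a replication clamp, was most of the sum in both FAP groups but not in MEFs (142, 85.6 and 68.6 CPM in muscle FAPs, lung FAPs and MEFs). Their part in the synthetase and serine results was not tested. Pericyte and smooth muscle markers summed to 97.3 to 104 CPM in muscle libraries, 550.4 to 2023 in lung libraries and 2029.6 to 3575 in MEFs, and tenocyte markers to 1200.5 to 2168, 97.6 to 186 and 45.2 to 52.7. Such sums follow the most abundant genes of a list. Gene by gene, 5 of 8 pericyte markers passed as higher and 2 as lower in lung FAPs than MEFs. Of the 5 tenocyte markers, 2 passed as higher and 3 as lower in lung FAPs than MEFs. Mesothelial markers gave 1.15 to 27.0, 361 to 856 and 102 to 135 CPM, and muscle and satellite cell markers 27.7 to 38.5, 35.4 to 216 and 45.4 to 59.6. Blood markers were at 6.45 to 8.43 CPM in muscle FAPs and 117.9 to 448 CPM in MEFs, endothelial markers at 3.67 to 11.6 and 164 to 196, and lung epithelial markers at 3.17 to 5.33 and 7.77 to 17.6. Between muscle and lung FAPs all 8 endothelial, all 5 mesothelial, 8 of 9 tested blood, 6 of 8 pericyte and 5 of 9 tested lung epithelial markers were lower in muscle, and all 5 tenocyte markers higher. The most abundant markers were Scgb1a1, Lyz2, Kdr, Acta2, Upk3b, Des and Thbs4, but not in every group. In muscle FAPs Scgb1a1 averaged 0.427 CPM against 1.24 for Cdh1, and Lyz2 0.531 against 4.24 for Cd68. No count was found for Pax7 and Cd3e in muscle FAPs, Myod1 in lung FAPs, or Sftpa1 and Cd3e in MEFs. What these cells added to the 36 genes was not tested, beyond the values without lung FAPs 2 and 3.

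**Figure D5:**
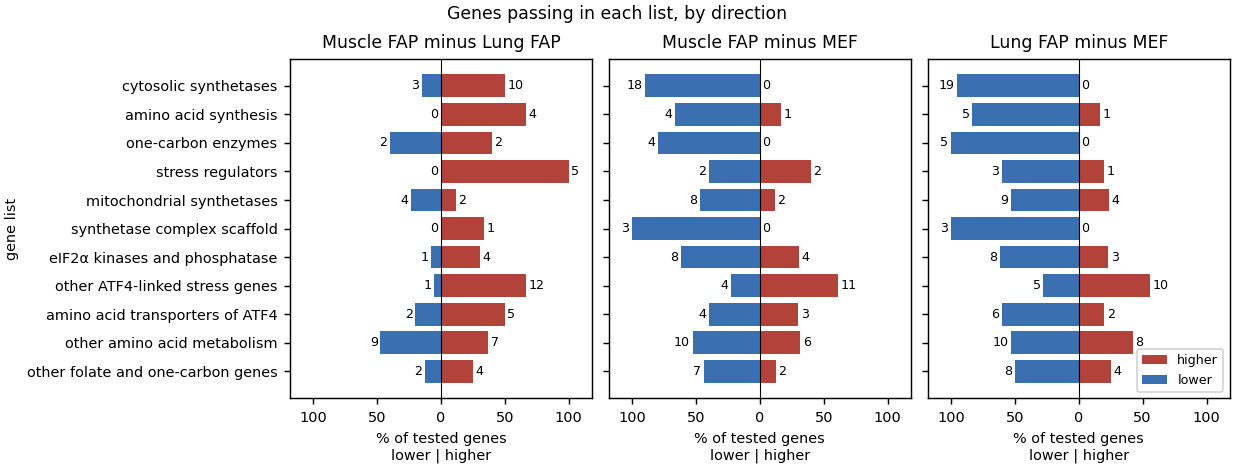
For each gene list, the percent of its tested genes (x axis) that passed as higher or lower in the 3 comparisons, with the number of genes at the end of each bar. Cytosolic synthetases (18 and 19 lower) and one-carbon enzymes (4 and 5 lower) are mostly lower in FAPs than in MEFs, and other ATF4-linked stress genes are more often higher (11 and 10) than lower (4 and 5).

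Amino acid carriers of the ATF4 program gave no single direction against MEFs, with 3 of 10 higher and 4 lower in muscle FAPs and 2 and 6 in lung FAPs. Slc7a5, the light chain of the large neutral amino acid carrier, averaged 96.1, 7.81 and 95.3 CPM in muscle FAPs, lung FAPs and MEFs, with no passing difference between muscle FAPs and MEFs (log2 difference 0.01, SE 0.20, edgeR adjusted p = 0.962, and −0.57 with library size only, which passed) and lung FAPs lower (log2 difference 3.62, SE 0.25, edgeR adjusted p = 9.78e-09 for muscle minus lung). The cystine carrier Slc7a11 was higher in muscle than lung (2.28 log2 units). Slc1a5, a glutamine carrier, was higher in both FAP groups than in MEFs (3.70 and 3.38), and Slc38a1, another, was lower (−4.76 and −2.91). Between the FAP groups, 5 carriers were higher and 2 lower in muscle (5 and 4 with library size only, and 5 and 1 without lung FAPs 2 and 3).

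Of 20 other genes of amino acid metabolism, 19 were tested, and Ass1 did not pass the filter. In muscle FAPs 6 were higher and 10 lower than in MEFs, in lung FAPs 8 and 10, and between the FAP groups 7 were higher and 9 lower in muscle (5 and 9 with library size only, and 7 and 7 without lung FAPs 2 and 3). Glul, which makes glutamine, averaged 1579, 754 and 35.7 CPM in muscle FAPs, lung FAPs and MEFs, while Asns, which uses glutamine, was highest in MEFs. Got1, which makes aspartate in the cytosol, and Bcat1, which takes the amino group from branched-chain amino acids, were higher in muscle than lung (1.87 and 1.55). Cth, of cysteine synthesis, was lower in muscle FAPs than MEFs (−4.26), and Cbs higher in lung FAPs than MEFs (2.88). Of 16 other folate genes, 2 were higher and 7 lower in muscle FAPs than MEFs, and 4 and 8 in lung FAPs, and between the FAP groups 4 were higher and 2 lower in muscle (2 and 8 with library size only, and 4 and 1 without lung FAPs 2 and 3). Aldh1l2, the mitochondrial formyl-folate oxidase, was higher in muscle than lung and lower in lung FAPs than MEFs (1.12 for muscle minus lung and −2.07 for lung FAP minus MEF), Slc19a1, a folate carrier, was higher in muscle than lung (0.64), and Gcsh, of the glycine cleavage system, was lower in muscle FAPs than MEFs (−1.82). Slc25a32, which carries folate into mitochondria, was higher in muscle FAPs than MEFs (1.31), and Amt higher in lung FAPs (2.57).

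Some values are uncertain because exons overlap other genes and how strand was set in the counting was not stated in the labels or notes used. On GRCm38, Exosc6 shares 14.29% of the Aars exon bases, Cct6a 10.44% of those of Psph, Sgpp2 9.47% of those of Farsb and Hars2 7.97% of those of Hars. Phgdh has several processed pseudogenes, among them Gm6756 and Gm8096 in the count table, and Iars and Psat1 each have a close copy, so reads could be split between them.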

How the data were processed

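Total RNA of 13 mouse libraries was sequenced, and the deposited table holds the authors' raw read counts per gene. Per the submitters' processing notes the tools were Bowtie2 2.1.0.0, HTSeq and edgeR with the mm10 build; annotation, strand setting and batches were not stated there. Every gene with enough counts (edgeR's filterByExpr, 15412 of 23418 genes) entered one edgeR 4.0.16 quasi-likelihood fit in R 4.3.3 with TMM scaling, all 13 libraries and group as the only factor, and p-values were Benjamini-Hochberg adjusted over all of them, with 0.05 as the threshold. CPM are TMM-scaled, and SEs come from log2 CPM with a prior count of 2. The fit was tested on simulated data. Levels between genes are CPM per kilobase of the principal GENCODE transcript. The 36 genes and all lists were chosen with earlier results of these data known. Values in every library are given for the stress regulators, Asns, and up to 4 genes with the largest differences in each role and comparison (at least 5 CPM); from other lists, the 2 largest passing genes in each comparison and further examples. Alternatives were DESeq2 1.42.0 (size factors and Wald test), library size only, no filter, the compared groups alone, a replicate block and each library left out; leaving out lung FAPs 2 and 3 was chosen after seeing the data. No 2 libraries of a group agreed within sampling noise.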

Additional observations from a re-analysis of the deposited data

Results flagged for a closer look

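In 108 groups of values (36 genes in 3 groups of libraries), 7 held a library far from the others by Dixon's criterion at the 95% level, which chance passes in about 5% of groups. Gars in muscle FAP 3 was 106.7 CPM against 82.07 to 86.0 CPM in the other muscle libraries, and without it the muscle excess over lung did not pass. Pycr1 in muscle FAP 4 was 13.3 CPM against 16.05 to 16.4 CPM. Trib3 in muscle FAP 2 was 7.281 CPM against 9.46 to 9.878 CPM. Ddit3 in lung FAP 4 was 58.56 CPM against 45.86 to 48.99 CPM. Cars was lowest in lung FAP 1, at 32.05 CPM against 34.46 to 35.19 CPM, and lowest in MEF 1, at 111.3 CPM against 120.3 to 120.7 CPM. Asns in MEF 1 was 92.71 CPM against 104.3 to 106.1 CPM.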

How the results depend on the processing

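The counts of lower genes against MEFs held under every alternative run, at 28 to 33 of 36 for muscle and 31 to 32 for lung. Between the FAP groups, library size only gave 10 higher and 11 lower genes in muscle in place of 21 and 5. Leaving out 1 library gave 17 to 22 higher and 4 to 5 lower, and the compared groups alone 18 and 5. The fit of the compared groups alone lost the calls of Iars (edgeR adjusted p = 0.0807), Pycr1 (0.0596) and Chac1 (0.149). Replicate numbers did not pair the libraries (correlations of same-numbered deviations −0.0484 to 0.0612), and the fit with the number as a replicate block gave 20 higher and 4 lower between the FAP groups; it lost the calls of Wars (edgeR adjusted p = 0.0555) and Chac1 (0.0564) between the FAP groups and of Eprs between lung FAPs and MEFs (0.0769). With library size only, muscle minus lung turned to −0.1249 in Cars, −0.07337 in Gars, −0.3309 in Hars, −0.05155 in Iars, −0.1439 in Kars, −0.358 in Mars, −0.3677 in Qars, −0.3053 in Rars, −0.1524 in Vars, −0.04736 in Farsa, −0.2627 in Phgdh, −0.4054 in Psph, −0.2127 in Shmt2 and −0.001345 in Ddit3; muscle FAP minus MEF turned to −0.4301 in Eprs and lung FAP minus MEF to −0.02642 in Atf4. These follow the shift of the median of all genes to −0.4434, −0.6166 and −0.1503 in the 3 comparisons. Other turns were of differences near 0: Qars to −0.0214 without muscle FAP 5 (range without 1 library to 0.08284); Phgdh to −0.01924 without lung FAPs 2 and 3; Psph to −0.01474 with the compared groups alone, −0.03031 with the block, −0.09953 without lung FAPs 2 and 3 and −0.003561, −0.06771 and −0.1121 without lung FAP 1, lung FAP 3 or muscle FAP 5 (range without 1 library to 0.0732). Dars for lung FAP minus MEF turned to 0.02284, 0.004323 and 0.007329 without MEF 1, MEF 4 or lung FAP 3 (range without 1 library from −0.16), and 0.005832 without lung FAPs 2 and 3. Their cause was not tested. Chac1 and Shmt1 are the lowest of the 36 in lung FAPs, so depth limits their values most.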

Other observations

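Genes of MYC and mTORC1 signalling, a second route to synthetase and serine gene expression, were read for the same groups. Of 13 genes, 7 were higher and 5 lower in muscle FAPs than MEFs, 4 and 7 in lung FAPs, and 6 were higher and none lower in muscle than lung (4 and 1 with library size only, and 5 and 0 without lung FAPs 2 and 3). Myc averaged 448, 220.2 and 81.3 CPM in muscle FAPs, lung FAPs and MEFs (log2 difference 1.03, SE 0.29, edgeR adjusted p = 0.00242 for muscle minus lung, and log2 difference 2.46, SE 0.17, edgeR adjusted p = 8.04e-07 for muscle FAP minus MEF). Eif4e, the cap-binding factor, was 1.31 log2 units higher in muscle than lung, and Mxi1, a MYC antagonist, was higher in both FAP groups than in MEFs (2.17 and 1.51). Myc mRNA was lowest in MEFs, whereas Mycl1 was highest there, at 4.02 CPM against 0.558 in muscle FAPs and 0.549 in lung FAPs. The part of these genes in the levels of the 36 was not tested.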
